A study of Mus musculus with 7 samples.

Results

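The values described here belong to 10 genes that mark disease-associated microglia, a state in which microglia of injured or degenerating nervous tissue lower part of their resting programme and raise genes for phagocytosis, lysosomes and lipid handling. The genes were found by symbol in the deposited table: Spp1, Gpnmb, Lpl, Itgax, Cst7, Clec7a, Cd63, Cd9, Lgals3 and Fabp5. All 10 were among the 40743 genes listed, and all 10 were among the 17496 genes tested. In this state Spp1, which encodes the secreted protein osteopontin, is commonly found together with Gpnmb, a transmembrane glycoprotein of lysosomes and the cell surface, and with Lpl, an enzyme that releases fatty acids from lipoprotein particles. Microglia with this profile are known from amyloid disease, from demyelination and from the retina with dying photoreceptors.

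The RNA came from retinal microglia (rMG) of adult mice with the genotype Irf8-/- Cx3cr1GFP/+ (labelled Irf8 KO), a knockout of the transcription factor IRF8 on a C57BL/6J background, which also carry GFP in one copy of Cx3cr1. The 3 unlasered libraries were made from retinae of untreated mice, and the 4 lasered libraries from retinae taken a week after laser burns that break the membrane under the retina and cause choroidal neovascularisation. From lasered eyes only the central 70% of the retina was used, so effects of the laser and of the retinal region cannot be told apart. Cells were sorted as CD45low CD11b+ Cx3cr1-GFP+ Ly6C- Ly6G-, and a library pooled on average 10000 cells from 3 to 4 mice, so single mice cannot be seen. Control libraries with intact Irf8 were not analysed here.

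Total reads were 20427558 to 36022954 in the unlasered and 37133297 to 45919042 in the lasered libraries, and levels are given in CPM, the reads of a gene relative to all reads of its library, for which 3 reads equal 0.0653 to 0.147 CPM. The labelled knockout could not be checked from these values, since reads of Irf8, listed only jointly with an overlapping gene, lay between 463 and 582 CPM in all 7 libraries. The sum of 14 markers of homeostatic microglia was 28106 to 33397 CPM in unlasered and 25049 to 34262 CPM in lasered libraries, and 13 of the 14 exceeded 3 reads in every library. Sall1, a defining factor of microglia, was at 1.36 CPM or less in every library. Reads of rod photoreceptors were also present, with a sum of 15 rod markers of 2251, 20191 and 5780 CPM in the unlasered and 1020, 449, 821 and 321 CPM in the lasered libraries. Unlasered library 2 stood apart in this sum, and the part of rod RNA in the results was not tested.

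Laser injury went with a strong rise of Spp1, Gpnmb and Lpl, whereas no other member passed the test. On the log2(CPM + 1) scale Spp1 was higher by 4.18, Lpl by 2.96 and Gpnmb by 2.11. Thus 3 of 10 genes were called higher by limma at a Benjamini-Hochberg adjusted p under 0.05, where 3.86% of all genes tested were called higher, and 0 of 10 were called lower, where 3.07% of all genes were. At an unadjusted p under 0.05 (limma) the same counts were 3 and 0, where 3963 of all 17496 genes passed in either direction. On recovered reads 2 members were higher by edgeR (Spp1 and Gpnmb) and 4 by DESeq2 (also Lpl and Fabp5), and 0 were lower by either. Of all genes tested, edgeR called 662 higher and 604 lower, and DESeq2 called 1177 higher and 1141 lower. These totals are also the background for the counts in the gene lists below. For Spp1, Gpnmb and Lpl every lasered library lay above every unlasered library, a pattern found in 10.4% of all genes tested. Of the members, 0 of 10 lay below throughout, against 10.7% of all genes. The median difference of the 10 genes was 0.65 on this scale, against -0.01 over all genes tested. In bulk RNA of sorted cells, a larger share of cells with a transcript and more transcript per cell cannot be told apart.

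**Figure D1:**
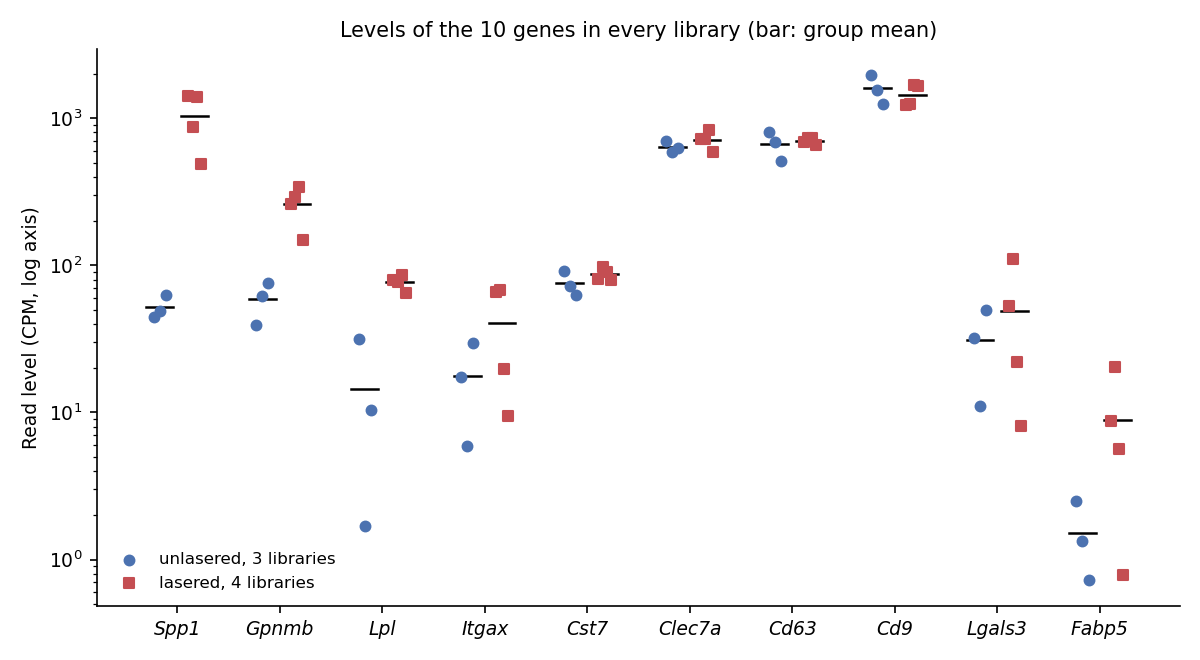
Read level of the 10 genes in every library (CPM, log axis), with circles for the 3 unlasered and squares for the 4 lasered libraries and a bar at each group's mean. The groups are separate for Spp1, Gpnmb and Lpl, while Clec7a, Cd63 and Cd9 stay in one narrow band and Itgax, Lgals3 and Fabp5 spread widely among the lasered libraries.

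Spp1 (ENSMUSG00000029304, protein-coding, plus strand, chr5:104435118-104441050 of GRCm38) encodes osteopontin, a secreted phosphoprotein of the extracellular matrix that binds integrins and CD44. The level of Spp1 was 44.9, 49.2 and 62.7 CPM in unlasered libraries 1 to 3 and 1421, 874, 1385 and 487 CPM in lasered libraries 1 to 4. Every lasered library was far above the unlasered ones, and lasered library 4 was the lowest of the lasered ones. The lowest lasered value was still 7.78 times the highest unlasered value. The means were 52.2 ± 9.26 CPM (SD, n = 3) and 1042 ± 446 CPM (SD, n = 4), a ratio of 19.9. The log2 difference of 4.18 had a standard error of 0.34 and a 95% confidence interval of 3.41 to 4.95 (limma, adjusted p = 0.0015). Among the 17496 genes tested this was the difference of rank 2, and by mean CPM Spp1 moved from rank 3872 in unlasered to rank 81 in lasered libraries. Spp1 was listed only together with Gm42793, a gene model that overlaps its exons, and the reads of both cannot be separated.

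Gpnmb (ENSMUSG00000029816, protein-coding, plus strand, chr6:49036546-49070929) encodes a glycoprotein of macrophages that is made when lysosomes are loaded. Its level was 39.3, 61.6 and 75.9 CPM without laser and 261, 293, 341 and 148 CPM in lasered libraries 1 to 4. As for Spp1, the groups did not overlap and lasered library 4 was the lowest of the lasered libraries. The lowest lasered value was 1.95 times the highest unlasered one, and the means were 58.9 ± 18.4 CPM (SD, n = 3) and 261 ± 82.2 CPM (SD, n = 4). Gpnmb rose by 2.11 on the log2 scale (SE 0.30, 95% confidence interval 1.43 to 2.80, limma, adjusted p = 0.00888), a difference of rank 34.

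The 250 bases before the starts of Spp1 and Gpnmb are shown, from RefSeq on GRCm38.p6 (chr5:104434861-104435110 and chr6:49036268-49036517, both plus strand, 5′ to 3′), with matches to searched motifs in capitals.
Spp1: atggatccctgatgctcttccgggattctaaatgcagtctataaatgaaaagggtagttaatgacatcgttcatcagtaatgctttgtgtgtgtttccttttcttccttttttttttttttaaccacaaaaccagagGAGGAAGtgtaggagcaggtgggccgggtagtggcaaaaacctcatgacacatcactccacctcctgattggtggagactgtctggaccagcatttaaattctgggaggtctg
Gpnmb: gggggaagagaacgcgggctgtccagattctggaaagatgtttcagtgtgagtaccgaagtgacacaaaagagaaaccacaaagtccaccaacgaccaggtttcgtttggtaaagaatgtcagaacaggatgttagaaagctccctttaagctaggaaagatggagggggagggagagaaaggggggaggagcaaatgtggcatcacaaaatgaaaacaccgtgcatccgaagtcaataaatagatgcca
The promoter table held 8 of the 10 genes and lacked Lpl and Fabp5. Motifs searched on both strands included GAGGAAG, a core bound by the myeloid factor PU.1, and TGANTCA for AP-1. GAANNGAAA, also searched, is a core of elements bound by PU.1 with IRF factors or by IRF factors in response to interferon. TCANNTGA, also searched, is a loose pattern that takes in sites of the factors MITF, TFEB and TFE3 but also other sequences. GAGGAAG was found 113 to 107 bases before the Spp1 start and, on the other strand, in the Cd63 window, and in 10.6% of all 32841 windows of the same length. The table holds a further Spp1 start, whose window (chr5:104435942-104436191) had no match to any of these motifs. GAANNGAAA was found in the Clec7a windows (6.31% of all windows) and TGANTCA in the Itgax window (6.75%). TCANNTGA was found in the Cst7 (TCAAGTGA) and Lgals3 (TCAGGTGA) windows (7.09%), and such a match is not specific to MITF, TFEB or TFE3. None of these motifs was found in the windows of Gpnmb and Cd9. A match is a run of letters in the window and was not tested for binding.

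Lpl (ENSMUSG00000015568, protein-coding, plus strand, chr8:68880491-68907448) encodes lipoprotein lipase. Its level was 31.4, 1.69 and 10.3 CPM in unlasered libraries 1 to 3 and 80.1, 76.7, 86.2 and 65.4 CPM in lasered libraries 1 to 4. The lasered libraries were close to each other, whereas the unlasered libraries differed by a factor of 18.5 between the highest and the lowest. The lowest lasered value was 2.08 times the highest unlasered value. Lpl rose by 2.96 on the log2 scale, with a wide 95% confidence interval of 1.48 to 4.45 (SE 0.66, limma, adjusted p = 0.0334). Unlasered library 2, the lowest for Lpl, was the one with the most rod reads, and without it the difference was 2.02 (adjusted p = 0.0249). The Lpl call was lost without unlasered library 3 (adjusted p = 0.0576) or without lasered library 1, 2, 3 or 4 (adjusted p = 0.0806, 0.0867, 0.0863 and 0.0616), and by edgeR on recovered reads (adjusted p = 0.0957). DESeq2 on these reads kept the Lpl call (adjusted p = 0.0398), which held in 8 of 16 alternatives.

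Fabp5 (ENSMUSG00000027533, protein-coding, plus strand, chr3:10012548-10016607), which encodes a carrier of fatty acids inside the cell, was the lowest of the 10 genes. The unlasered libraries had 2.50, 1.34 and 0.722 CPM, and the lasered libraries had 8.77, 20.5, 5.62 and 0.781 CPM. Lasered libraries 1 to 3 were above all unlasered ones, while lasered library 4, with 29 reads, lay among them. The log2 difference was 1.55 with a standard error of 0.70 and a 95% confidence interval of -0.04 to 3.13 (limma, adjusted p = 0.23). Without lasered library 4 the difference was 2.21 (adjusted p = 0.0378), and DESeq2 on recovered reads also called it (adjusted p = 0.00874), whereas edgeR on these reads did not (adjusted p = 0.147). Reads of some processed copies of Fabp5 were listed apart from it, but not those of Gm6166, which shared 184 of its 360 windows of 50 bases with Fabp5, so the Fabp5 level is uncertain. Gm14328 was 97.3% identical to Fabp5 over 408 bases and had 0.0278 to 0.204 CPM without and 0.108 to 2.90 CPM with laser, and Fabp5l2 was 94.1% identical over 405 bases and did not exceed 0.690 CPM. With the reads of Gm14328 and Fabp5l2 added, a calculation chosen after seeing the data, the Fabp5 difference was 1.63 (adjusted p = 0.219).

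**Figure D2:**
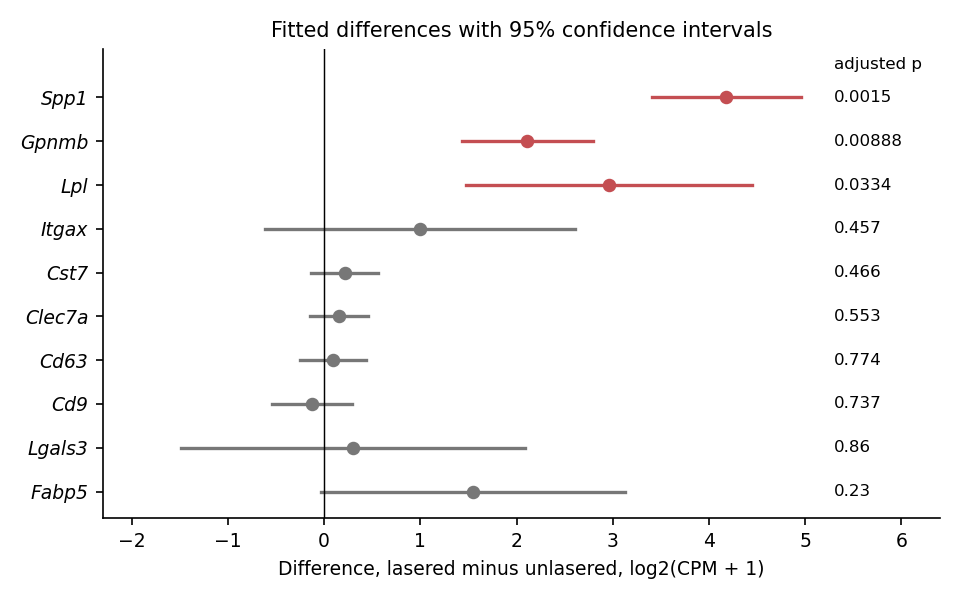
Fitted difference of each gene between lasered and unlasered libraries on the log2(CPM + 1) scale (points) with 95% confidence intervals (lines) and limma adjusted p at the right. The intervals of Spp1 (3.41 to 4.95), Gpnmb and Lpl lie above 0, those of Cst7, Clec7a, Cd63 and Cd9 are short and include 0, and those of Itgax, Lgals3 and Fabp5 are long and include 0.

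Itgax (ENSMUSG00000030789, protein-coding, plus strand, chr7:128129547-128150657) encodes CD11c, the alpha chain of a complement-binding integrin, which is also a marker of dendritic cells. The unlasered libraries had 17.5, 5.96 and 29.8 CPM, and the lasered libraries had 65.4, 68.3, 19.6 and 9.45 CPM. Lasered libraries 1 and 2 were above all unlasered libraries, and lasered libraries 3 and 4 were within the unlasered range. The log2 difference was 1.00 (SE 0.71, 95% confidence interval -0.62 to 2.61, limma, adjusted p = 0.457).

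Lgals3 (ENSMUSG00000050335, protein-coding, plus strand, chr14:47367751-47386160) encodes galectin-3, a lectin that binds damaged lysosomes and is made by many activated macrophages. Its level was 32.3, 10.98 and 49.4 CPM without laser and 53.2, 111, 21.97 and 8.08 CPM with laser. Again lasered libraries 1 and 2 were the highest of all 7, and lasered library 4 was the lowest of all 7. The log2 difference was 0.30 (SE 0.79, 95% confidence interval -1.49 to 2.09, limma, adjusted p = 0.86), and its sign turned without lasered library 2 (-0.28) or without unlasered library 2 (-0.29).

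Itgax, Lgals3 and Fabp5 thus shared their highest lasered values in libraries 1 and 2 and their lowest in library 4. The summed markers of dendritic cells and of monocytes followed a similar order, whereas those of border macrophages did not (1969, 2015, 1953 and 2243 CPM in lasered libraries 1 to 4). The sum of 9 dendritic cell markers was 38.7, 25.3 and 51.0 CPM in unlasered libraries 1 to 3 and 167, 204, 56.5 and 38.2 CPM in lasered libraries 1 to 4. The sum of 9 monocyte markers was 84.3, 25.6 and 83.3 CPM without and 156, 209, 37.3 and 13.5 CPM with laser. More than 3 reads in every library were found for 5 of the 9 dendritic and 3 of the 9 monocyte markers. Among the defining markers, Ccr2 of monocytes was 5.63, 6.37 and 14.2 CPM without and 81.5, 128, 19.7 and 7.57 CPM with laser, whereas Ly6c2, whose product the sort selected against, stayed at or below 0.891 CPM. Plac8 of the monocyte list went the other way, with 47.0, 9.78 and 45.6 CPM without and 27.3, 39.6, 10.6 and 3.58 CPM with laser (log2 difference -0.88, limma, adjusted p = 0.553), and the median of the list was -0.09. Clec9a, a marker of conventional dendritic cells, stayed at or below 0.245 CPM. Of the dendritic list 1 of 8 genes tested was called, Ccl22, a chemokine that attracts regulatory T cells, with 0.196, 0.0292 and 0.0555 CPM without and 18.1, 36.4, 8.88 and 3.53 CPM with laser (limma, adjusted p = 0.0132). Zbtb46, the dendritic marker with the highest mean, was not called (log2 difference 0.11, adjusted p = 0.84). The median of the dendritic list was 1.62, with 3 of 8 genes higher at an unadjusted p under 0.05, 2 called higher by edgeR (Ccl22 and Cd209a) and 3 by DESeq2 (also Ccr7). Of the monocyte list 0 of 6 genes tested were called by limma, with 1 higher at an unadjusted p under 0.05, 0 called by edgeR and 1 by DESeq2. The part of these cells in the levels of Itgax, Lgals3 and Fabp5 was not tested. The library order of Spp1, Gpnmb and Lpl differed in that lasered library 3 was high in all of them. Lasered library 4 was their lowest lasered library too, and the part of other cells in their levels was not tested.

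**Figure D3:**
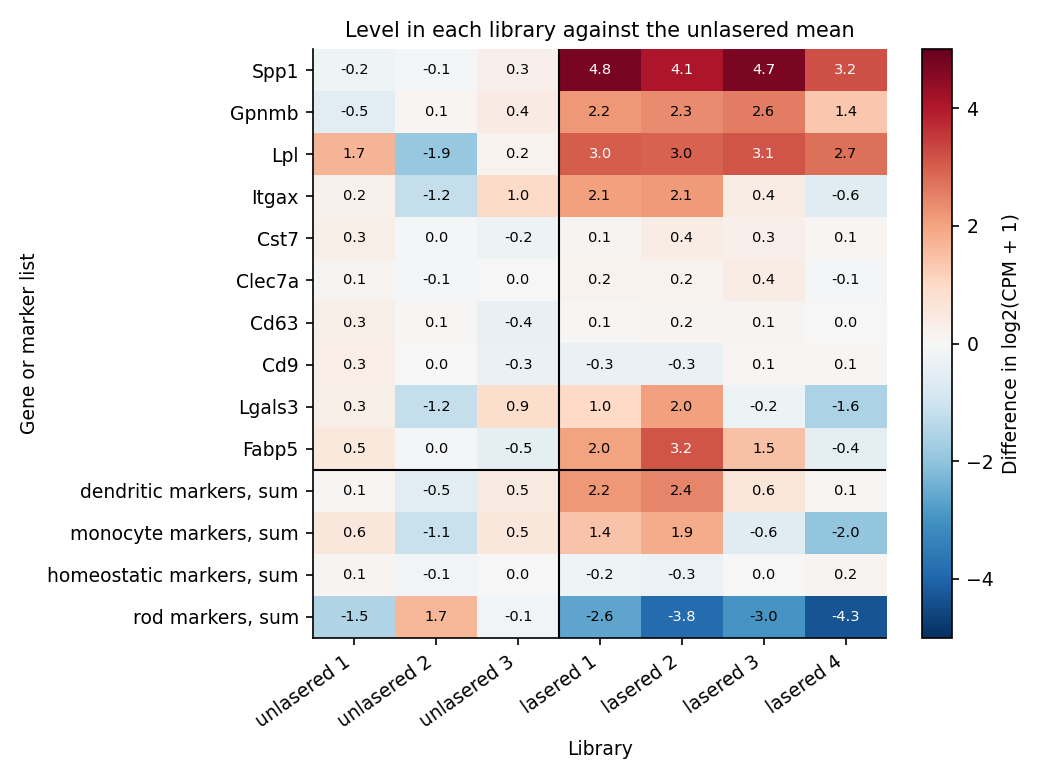
Difference of each library from the mean of the unlasered libraries on the log2(CPM + 1) scale, for the 10 genes (above the line) and for 4 summed marker lists (below it), with red for higher and blue for lower values. Spp1, Gpnmb and Lpl are high in all 4 lasered libraries, whereas Itgax, Lgals3 and Fabp5 share lasered libraries 1 and 2 with the dendritic and monocyte sums, and the rod sum is below the unlasered mean in every lasered library.

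Clec7a (ENSMUSG00000079293, minus strand, chr6:129461591-129472779, annotated as a polymorphic pseudogene) encodes dectin-1, a receptor for beta-glucans. Clec7a was already abundant without laser, with 699.6, 594 and 632 CPM, and had 719.6, 728, 826 and 593 CPM with laser. The lasered values enclosed the unlasered ones, and the log2 difference was 0.15 (SE 0.13, 95% confidence interval -0.15 to 0.45, limma, adjusted p = 0.553). Its rank by mean CPM was 150 in unlasered and 133 in lasered libraries.

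Cst7 (ENSMUSG00000068129, protein-coding, plus strand, chr2:150570415-150578944) encodes cystatin F, an inhibitor of lysosomal cathepsins. It had 91.3, 72.4 and 62.9 CPM without laser and 81.2, 97.7, 89.4 and 79.7 CPM with laser. The ranges overlapped, and the log2 difference was 0.21 (SE 0.16, 95% confidence interval -0.14 to 0.57, limma, adjusted p = 0.466).

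Cd63 (ENSMUSG00000025351, protein-coding, plus strand, chr10:128900989-128912822) encodes a tetraspanin of late endosomes and lysosomes. Its level was 809, 693 and 516 CPM without and 694, 734, 732 and 660.1 CPM with laser, so all lasered values fell within the unlasered range. The log2 difference was 0.09 (SE 0.15, 95% confidence interval -0.25 to 0.44, limma, adjusted p = 0.774). Cd63-ps, a processed pseudogene on chromosome 18 that was 97.8% identical to a Cd63 transcript over 863 bases, was listed at 1.08 to 1.15 times the Cd63 level in every library, only jointly with another gene. Because reads of such copies may stem from either locus, the Cd63 level is uncertain. With the reads of Cd63-ps added, a calculation chosen after seeing the data, the difference was 0.10 (adjusted p = 0.75).

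Cd9 (ENSMUSG00000030342, protein-coding, minus strand, chr6:125460266-125494791) encodes a tetraspanin of the plasma membrane and was the most abundant of the 10 genes by CPM. It had 1982, 1548 and 1249 CPM without laser and 1231.5, 1241.5, 1678 and 1644 CPM with laser. The ranges overlapped, and the log2 difference was -0.13 (SE 0.18, 95% confidence interval -0.54 to 0.29, limma, adjusted p = 0.737). Cd9-ps, a processed pseudogene with 89.8% identity to Cd9, was listed at 0.127 to 0.159 times the Cd9 level, and with its reads added the difference was -0.11 (adjusted p = 0.781). For Clec7a, Cst7, Cd63 and Cd9 the intervals left room for log2 differences of no more than 0.57 in either direction. This limit holds for this model and these libraries, and a p above the threshold does not show equal levels.

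Levels of different genes were compared after division by the length of all annotated exons and scaling to the same total in each library (relative level per length, mean ± SD). Without laser the order was Cd9 (1995 ± 356), Clec7a (628 ± 61.5), Cd63 (467 ± 75.0), Cst7 (197 ± 28.1) and Spp1 (82.6 ± 21.02), and Lgals3, Gpnmb, Itgax, Lpl and Fabp5 followed from 44.1 down to 1.08. The first 5 did not overlap their neighbours among each other, whereas the ranges from Spp1 downwards overlapped those of the next gene. With laser, Cd9 (1744 ± 325) and Spp1 (1555 ± 678) were highest and overlapped, Clec7a (667 ± 91.9) overlapped Spp1, and Gpnmb (98.3 ± 31.1) had passed Lgals3 (63.3 ± 58.3), although these also overlapped. An alternative chosen after seeing the data used the length of the longest protein-coding transcript in place of all exons. Cd63 (1474 ± 237) then stood above Clec7a (691.5 ± 64.6) without laser. With laser Spp1 (1732 ± 773) again came next after Cd9 (2931 ± 476). Their ranges no longer overlapped, with Spp1 up to 2422 and Cd9 from 2473 upwards, and Spp1 overlapped Cd63 (1581 ± 91.8). In both orders the place of Cd63 is uncertain, and with it the order of Cd63 against Clec7a, Spp1 and Cd9. Reads listed under Cd63-ps, at 1.08 to 1.15 times the Cd63 level in every library, were not counted to Cd63 here.

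The genes whose profile over the 7 libraries was closest to Spp1 were sought among 10287 genes with a mean of at least 10 CPM, by the root mean square difference of centred log2(CPM + 1) values. This is a description of 7 values that share the same 2 groups. The 5 closest were Gm20547 (0.38), Fam189a2 (0.54), Saa3 (0.56), Cspg4 (0.72) and Emp1 (0.80). Saa3, which encodes a serum amyloid protein of the acute phase, had 10.7, 12.7 and 7.27 CPM without and 176, 108, 141 and 46.2 CPM with laser, so that lasered library 4 was the lowest lasered library here too. Gpnmb had rank 10 and Lpl rank 19 by this measure, and Itgax (632), Clec7a (2851), Cst7 (2874), Cd63 (4224), Lgals3 (6369) and Cd9 (7508) were farther away. Fabp5 was below the minimum mean and was not ranked.

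Of 26 other genes known from disease-associated microglia, 4 were called higher and 2 lower by limma, against 3.86% and 3.07% of all genes tested. Their median log2 difference was 0.20, against 0.65 for the 10 genes and -0.01 over all genes tested. Higher were Axl, a receptor for the uptake of dying cells (1.74, adjusted p = 0.0478), Cd52, a small glycoprotein of leukocytes (1.56, adjusted p = 0.0112), the chemokine Ccl4 (1.47, adjusted p = 0.00749) and H2-D1, a class I histocompatibility chain (0.79, adjusted p = 0.0226). Lower were Serpine2, a protease inhibitor (-1.23, adjusted p = 0.016), and Cadm1, an adhesion molecule (-1.09, adjusted p = 0.0106). Axl, with 34.1, 41.4 and 55.0 CPM without and 240.2, 260.4, 104 and 68.0 CPM with laser, had its highest values in lasered libraries 1 and 2, as Itgax and Lgals3 did. The Axl call held in 6 of 16 alternatives and was lost without any single library other than lasered library 4 (adjusted p up to 0.129, limma), and the H2-D1 call held in 10 of 16. Apoe, Trem2 and Tyrobp, central to the entry into this state, did not pass (log2 differences -0.58, 0.12 and 0.21, adjusted p = 0.25, 0.686 and 0.366). Of 13 homeostatic genes tested, 0 were called by limma, with 1 higher and 4 lower at an unadjusted p under 0.05, 0 called by edgeR and 1 lower by DESeq2, P2ry12, which was also called lower without lasered library 4. Their median was -0.20, and Csf1r, the growth factor receptor with the highest mean of this list, differed by 0.09 (adjusted p = 0.801).

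**Figure D4:**
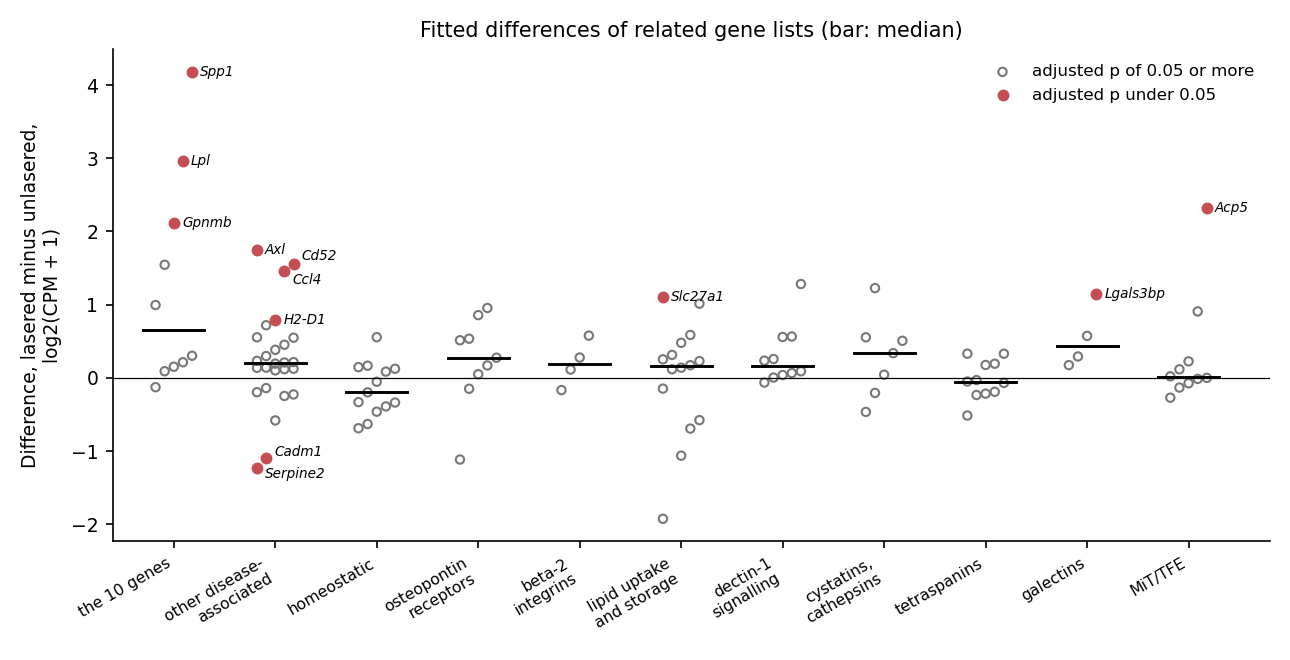
Fitted differences of tested genes in the lists related to the 10 genes (all but 1 gene of lipid uptake and storage), on the log2(CPM + 1) scale, with filled points for an adjusted p under 0.05, open points for the others and a bar at the median of each list. Spp1 has the largest difference of all genes plotted, and called genes appear in the lists of other disease-associated genes, lipid uptake and storage, galectins and MiT/TFE factors and targets.

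The partners of the 10 genes were described by lists of their pathways. Over all genes tested, limma called 3.86% higher and 3.07% lower, which is the background for the counts in these lists. For Spp1, 0 of 9 receptor chains of osteopontin were called by limma, with 3 higher and 1 lower at an unadjusted p under 0.05, 0 called by edgeR and 2 higher (Cd44 and Itga5) and 1 lower (Itga8) by DESeq2. This count rested on single libraries: without unlasered library 3, 4 were called higher (Itgav, Itgb3, Itga5 and Itga9), and without unlasered library 2, 1 was called lower (Itga8), while median-of-ratios scaling called Itga5 higher. Itgb5, the receptor chain with the highest mean, was at 1772.5, 1834 and 2318.5 CPM without and 2245, 2210.2, 2410.3 and 2655.5 CPM with laser, and the ranges overlapped (0.28, adjusted p = 0.236). Cd44, another osteopontin receptor, had 136, 108 and 145 CPM without and 385, 365, 163 and 131 CPM with laser (0.86, adjusted p = 0.209), with its highest values in lasered libraries 1 and 2. For Itgax, 0 of 4 beta-2 integrin chains were called by limma, edgeR or DESeq2, and 0 at an unadjusted p under 0.05, among them the beta chain Itgb2 (0.11, adjusted p = 0.673). Without unlasered library 3, 2 of the 4 were called higher, Itgam and Itgal. Itgad, an integrin chain close to Itgax in sequence, was at 10.8 to 13.7 CPM without and 7.57 to 14.0 CPM with laser.

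Around Lpl and Fabp5, 1 of 16 tested genes of lipid uptake and storage was called higher and 1 lower by limma (3.86% and 3.07% of all genes). Slc27a1, a transporter of fatty acids, rose by 1.11 on the log2 scale (adjusted p = 0.019, limma), a call that held in 12 of 16 alternatives. Angptl4, an inhibitor of lipoprotein lipase, was at 2.89, 2.66 and 1.78 CPM without and 13.4, 9.93, 3.46 and 2.18 CPM with laser (1.01, adjusted p = 0.258). For Clec7a, 0 of 10 signalling genes were called by limma, with 2 higher at an unadjusted p under 0.05, 0 called by edgeR and 1 higher by DESeq2, and Vav1, the one with the highest mean, differed by 0.09 (adjusted p = 0.734). Without unlasered library 3, 3 of the 10 were called higher (Plcg2, Src and Nfatc2), and median-of-ratios scaling called Src higher. For Cst7, 0 of 7 tested cystatins and target proteases were called by limma, with 3 higher and 1 lower at an unadjusted p under 0.05, 0 called by edgeR and 1 higher by DESeq2, and Cst3, which encodes cystatin C, differed by -0.46 (adjusted p = 0.127). Without unlasered library 3, Cst3 was called lower, and median-of-ratios scaling called the protease gene Ctsl higher.

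Among 11 tetraspanins and partners of Cd63 and Cd9, 0 were called by limma, with 1 lower at an unadjusted p under 0.05, 0 called by edgeR and 1 lower by DESeq2, and Cd81, the highest, differed by -0.03 (adjusted p = 0.927). Without unlasered library 3, 1 was called lower, Tspan3. Of 4 tested genes in the list of galectins and partners, 1 was called, Lgals3bp. This gene encodes a secreted binding partner of galectin-3 and not a galectin itself. It had 306, 347 and 346 CPM without and 887, 817, 762 and 538 CPM with laser (1.15, adjusted p = 0.0097, limma), and its groups did not overlap, unlike those of Lgals3. Of 10 MiT/TFE factors and targets, the group that governs lysosomal genes and to which Gpnmb is linked, 1 was called, Acp5, a lysosomal phosphatase, with 2.99, 0.964 and 3.03 CPM without and 20.7, 37.7, 11.7 and 4.79 CPM with laser (2.32, adjusted p = 0.0455). The Acp5 call held in 6 of 16 alternatives and was lost without any single library other than lasered library 4 (adjusted p up to 0.117, limma). The median of the MiT/TFE list was 0.01, against -0.01 over all genes tested, so the list did not move as a set. At an unadjusted p under 0.05 (limma) 2 of its genes were higher and 0 lower, and edgeR called 1 and DESeq2 2 higher.

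Markers of other retinal cells were read in the same libraries. Of 15 rod genes 14 were called lower, with Gngt1 (-4.16), Pdc (-3.84) and Pde6g (-3.78) having the largest falls (limma, adjusted p = 0.00611, 0.0146 and 0.011). Without lasered library 2, 3 or 4 the number called lower was 3, 5 and 7, with no filter on low values it was 5, and with the replicate block it was 0. The sum of 9 Mueller glia markers, cells that also express Cd9, was 678 to 950.0 CPM without and 288 to 603 CPM with laser, with Slc1a3 highest. Among 8 genes tested by limma, Gfap was called higher (1.59, adjusted p = 0.0311), Dkk3 lower (-0.91, adjusted p = 0.0138), and 6 were not called. The call of Gfap, which did not exceed 3.87 CPM in any library, held in 6 of 16 alternatives, and 0 genes of this list were called higher by edgeR or DESeq2 or without lasered library 1, 2, 3 or 4 or unlasered library 1 or 2. The sum of 9 border macrophage markers was 2826 to 3118 CPM without and 1953 to 2243 CPM with laser, with Ms4a7 highest. Among 8 genes tested by limma, Pf4 (-0.89, adjusted p = 0.0285) and Ms4a7 (-0.81, adjusted p = 0.047) were called lower and 6 were not called. The median of this list was 0.04, so the genes did not fall as a set. At an unadjusted p under 0.05 (limma) 1 was higher and 3 lower, and DESeq2 called 1 higher (Cbr2) and 2 lower. The call held in 9 of 16 alternatives for Pf4 and in 5 of 16 for Ms4a7, with 0 called lower without lasered library 1, 2 or 3 or unlasered library 1 or 2, and Cbr2 called higher without unlasered library 1. The endothelial sum was 39.9 to 71.6 CPM without and 27.8 to 33.0 CPM with laser, with Pecam1 highest and Cldn5 at or under 3 reads in every library. Among 4 endothelial genes tested by limma, Egfl7 was called lower (-1.58, adjusted p = 0.0116) and 3 were not called. For the pigment epithelium and melanocytes the sums were 33.6 to 40.0 and 34.0 to 38.4 CPM, with Rdh5 highest, 0 of 4 tested genes called by limma (1 higher at an unadjusted p under 0.05, 0 by edgeR and DESeq2) and Lrat at or under 3 reads in every library. For ganglion cells they were 12.9 to 19.6 and 13.5 to 20.3 CPM, with Rbpms highest, 0 of 3 tested genes called by limma, edgeR or DESeq2 or at an unadjusted p under 0.05, and Pou4f2 and Pou4f3 at or under 3 reads in every library. Immediate early genes, which can respond to the isolation of cells, summed to 558 to 601 CPM without and 415 to 737 CPM with laser, with Jun highest. Among 9 of these tested by limma, Egr2 was called higher (1.23, adjusted p = 0.0437), Nr4a1 lower (-2.10, adjusted p = 0.0231), and 7 were not called. The Egr2 call held in 5 of 16 alternatives and was lost by edgeR and without any single library other than unlasered library 1. The part of these cells and of cell isolation in the levels of the 10 genes was not tested.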

How the data were processed

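RNA-seq values of 7 libraries of sorted Irf8 KO retinal microglia, 3 unlasered and 4 lasered, were compared. The authors removed adapters and duplicate reads (cutadapt, FastUniq), mapped reads with bowtie2, which does not split reads over introns, and counted them per gene with HTSeq. The submitters' processing notes name GRCm38 and DESeq2. The deposited table is headed TPM, but the deposited values are CPM: 100% of them were whole multiples of a step per library (tolerance 0.1 of a step), so whole reads were recovered. The library kit does not mark strand, and 4492 genes hold reads listed jointly with another gene.

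Of 40743 genes, 17496 that reached 1 CPM in 3 or more libraries were tested with limma 3.58.1 (R 4.3.3, statmod 1.5.0) on log2(CPM + 1) with trend and robust variance, two-sided, with Benjamini-Hochberg adjustment over all of them. A pseudocount of 1 understates changes of low genes. In data simulated on this comparison, 35.5%, 95.0% and 99.5% of genes changed by a factor of 2, 4 and 8 were called. Of the calls, 6.58%, 3.06% and 7.01% were false. The changed genes excluded the lowest ones, and counts were drawn independently per gene, without effects shared within a library. Alternatives were another pseudocount (0.1), no filter, a filter on mean reads (10 or more), a replicate block and the omission of single libraries. Others were median-of-ratios scaling, a fit without trend and robust variance, and edgeR 4.0.16 and DESeq2 1.42.0 on recovered reads. A last one, chosen after seeing the data, added reads of copies to Cd63, Cd9 and Fabp5. It is counted among the 16 alternatives, although it left the levels of all other genes unchanged. Each library is a pool of mice, and since no source says that the pools were collected independently, p-values measure only the spread between these samples, which may be technical. The confidence intervals come from the same fit, and the limit of 3 reads covers counting error only. Identities of gene copies were aligned with Biopython 1.88 on GENCODE transcripts.

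The 10 genes and the lists were chosen with earlier results of these data known. Named from each list were the called genes (at most the 3 largest rises and 3 largest falls), or the gene with the highest mean where none was called, with the highest gene of each marker list, the 5 genes closest to Spp1, genes that share reads with a member and its pseudogenes. H2-D1, Apoe, Trem2, Tyrobp, Sall1, Cd44, Itgav, Itgb3, Itga5, Itga8, Itga9, Itgam, Itgal, Itgad, Plcg2, Src, Nfatc2, Ctsl, Tspan3, P2ry12, Plac8, Ccr7, Cd209a, Cbr2, Angptl4, Ly6c2, Clec9a, Cldn5, Lrat, Pou4f2 and Pou4f3 were named outside this rule, after their values were seen. A called gene of the lipid list and the highest rod gene are not reported here.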

Additional observations from a re-analysis of the deposited data

Results flagged for a closer look

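Among the 59 levels examined over the 4 lasered libraries (members, named list genes, genes closest to Spp1 and marker sums), 4 had 1 library far from the other three by Dixon's criterion, and chance gives about 1 in 20. None of these was among the 10 disease-associated genes. In each case lasered library 4 was the one apart. It had the highest level of Cadm1 (136 CPM) and of Egfl7 (11.4 CPM) and the lowest level of Dkk3 (91.3 CPM) and of Emp1 (57.3 CPM), a gene with a profile close to that of Spp1.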

How the results depend on the processing

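All 3 calls among the 10 genes (Spp1, Gpnmb and Lpl) were kept with a pseudocount of 0.1 and a mean of at least 10 reads. They were also kept with median-of-ratios scaling and with no trend and no robust variance. The addition of copies changed only Cd63, Cd9 and Fabp5, so it could not test these calls. The number of members called was 2 to 3 with 1 library left out. Counting the addition of copies, Spp1 stayed past the threshold in all 16 alternatives, with log2 differences of 3.99 to 4.51, and Gpnmb in 15 of 16. Lpl stayed past it in 8 of 16, with differences of 2.02 to 3.81, and missed it with no filter on low values (adjusted p = 0.0808, limma). With the replicate block 1 member was called, Spp1 (adjusted p = 0.0125), and Gpnmb (0.058) and Lpl (0.11) were not, while 3 genes were called in all. Libraries with the same number share only a number: the correlations of their deviations were -0.18, -0.13 and -0.02. Counts of all genes called were 1213 as reported, 385 with no filter, 2318 by DESeq2 and 262 to 1406 with 1 library left out, and with lasered library 1, 2, 3 or 4 left out they were 407, 262, 388 and 781. With 1 library left out, log2 differences that turned sign ranged from -0.0876 (without unlasered library 3) to 0.24 for Cd63, from -0.29 to 0.0433 (without unlasered library 1) for Cd9 and from -0.29 (without unlasered library 2, and -0.28 without lasered library 2) to 0.93 for Lgals3, and the cause was not tested. Of 160 member values under the alternatives, 145 kept direction and side of the threshold. Of 304 counts for the other lists, 221 stayed within a factor of 1.5 of the reported count. Both totals include the addition of copies, which left the levels of all genes but Cd63, Cd9 and Fabp5 as they were. The use of reads listed under a gene alone was not run, because Spp1 is listed only jointly. Fabp5, with 26 to 919 reads per library, is the member most limited by depth.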
